A study of Mus musculus with 10 samples.

Results

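The interleukin-1 (IL-1) family was followed by RNA-seq through 10 genes in the oesophagus of mice given 4-NQO: the ligands Il1a, Il1b, Il36a, Il36b, Il36g, Il33 and Il18, the antagonist Il1rn, and the receptors Il1r1 and Il1r2. They were chosen by name, as genes of this family, from a table of 22740 protein-coding genes. The table lists 7 of the 10 under these names. The other 3 were found through RefSeq synonyms, since the table carries Il36a as Il1f6, Il36b as Il1f8 and Il36g as Il1f9. All 10 passed the filter on low counts, as did 13731 genes in all.

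4-NQO (4-nitroquinoline 1-oxide) damages DNA and, given to mice, gives rise to squamous cancers of tongue and oesophagus. Of the mice, 5 are labelled Grhl3 knockout (Grhl3 KO) and 5 wild type. All 10 mice are labelled C57BL/6 and all were given 4-NQO, so there are no mice without the carcinogen. Grhl3 is a gene of the grainyhead-like family, whose transcription factors act in epithelial barriers. The labels call the Grhl3 KO tissue oesophageal tumour and the wild-type tissue oesophageal tissue, whereas the design text speaks of tumours from both. The deposited columns of the Grhl3 KO group carry the letters L2Cre, which the sources used here do not explain. The series title speaks of a conditional knockout, but neither the promoter that drives Cre nor the sex, age or 4-NQO dose is stated in them. Each library is named by its group and the number in its title.

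Members of this family act as early alarm signals of barrier epithelia. IL-1α is stored in keratinocytes and is active when a damaged cell releases it, whereas IL-1β and IL-18 are made as precursors that caspase-1, the enzyme of the inflammasome, cuts into active form. IL-1α and IL-1β share the receptor IL1R1, the antagonist IL1RN blocks it, and IL1R2 is a decoy that binds ligand without signalling. The IL-36 cytokines are made by keratinocytes, need trimming by proteases, and act through their own receptor, IL1RL2. IL-33 is held in the nucleus and acts through IL1RL1 on immune cells.

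Grhl3 itself did not separate the groups. It had 135, 234, 191, 235 and 317 CPM (counts per M of the scaled library total, M being mega) in libraries 1026, 1027, 1035, 1036 and 1043, labelled Grhl3 KO, against 363, 114, 164, 283 and 109 CPM in wild-type libraries 1028, 1048, 1528, 1555 and 1561. The log2 fold change was 0.11 (adjusted p = 0.979 by edgeR's quasi-likelihood test with Benjamini-Hochberg adjustment over all genes tested). The sources used here do not say which stretch of the gene was removed, so these whole-gene counts do not check the labels, and the groups are named after the labels alone. Library totals were 15.3 to 32.9 M counts. Wild-type libraries 1528 and 1555 stand apart. Their 4 Y-linked genes summed to 0.0527 and 0.0539 CPM, wild-type 1561 had 72.3 CPM, and the other 7 libraries had 154 to 203 CPM. The numbers 1528 to 1561 belong to wild-type mice alone, whereas 1026 to 1048 cover 5 Grhl3 KO and 2 wild-type mice, so the fold changes of the members and of the named pathway genes were also computed within 1026 to 1048 and without 1528 and 1555. Keratinocyte markers were abundant in every library. The most abundant basal markers were Krt14, with a mean of 17511 CPM, and Krt5, with 10528 CPM. Among suprabasal markers these were Krt13, with 16527 CPM, and Krt6a, with 12402 CPM.

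No member was called different between the groups. At an adjusted p under 0.05, 0 of the 10 members were called, against 11 of 13731 genes, or 0.0801%, over the whole table. By direction, 0 members were called higher, against 0.0291% of genes, and 0 lower, against 0.051%. DESeq2 and limma voom also called 0 members. At an unadjusted p under 0.05 by edgeR the count was 0 of 10, against 7.16% of all genes. Groups that do not overlap were seen in 0 members, against 1.35% of all genes (0.787% higher and 0.568% lower in Grhl3 KO). The fitted fold change was above 0 for 4 members and below 0 for 6, with a median log2 fold change of -0.05 beside -0.0011 for all genes tested. On the log2 scale the widest 95% limits were those of Il1b, from 0.428-fold to 1.74-fold. The lowest lower limit was 0.389-fold, for Il1r2, and the highest upper limit 2.69-fold, for Il18.

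**Figure D1:**
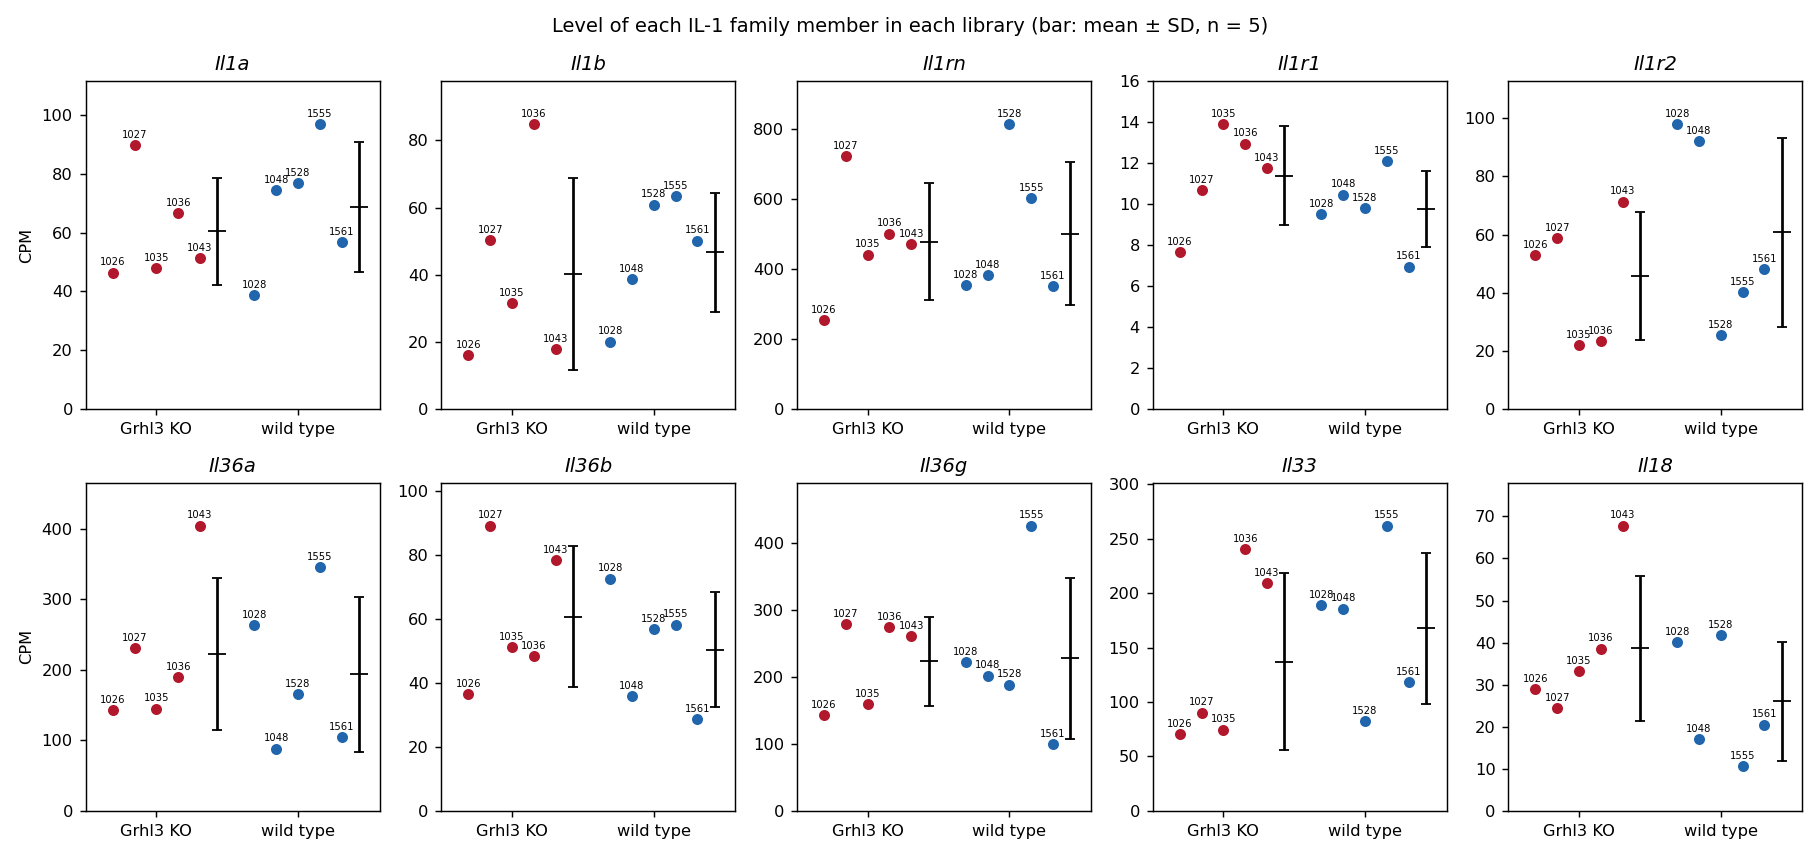
Level of each of the 10 members in each library, in CPM on an axis from 0, with Grhl3 KO (red, n = 5) left of wild type (blue, n = 5); points carry the library number, and the bar gives the mean and SD. The 2 groups overlap in every panel, and Il18 is the panel in which all 5 Grhl3 KO libraries lie above the wild-type median of 20.5 CPM.

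The IL-1 ligands Il1a and Il1b lie in the same orientation on chromosome 2 (GRCm38), Il1a from 129299610 to 129309972 and Il1b from 129364570 to 129371139, both on the minus strand and together within 71.5 kb. The 3 IL-36 genes and Il1rn form a second group on chromosome 2, all on the plus strand within 198 kb: Il36b from 24153161 to 24160519, Il36g from 24186476 to 24193568, Il36a from 24215418 to 24225702 and Il1rn from 24336853 to 24351494. Il1r2 (40074079 to 40125231) and Il1r1 (40225080 to 40317257) neighbour each other on the plus strand of chromosome 1. Il33 lies on chromosome 19 (29925114 to 29960718) and Il18 on chromosome 9 (50554827 to 50581840). The promoters of 2 ligands from each of the 2 groups on chromosome 2 are printed here, since the ligands of each group had positive correlations over the libraries. Each is the 250 bases before the start of transcription, 5′ to 3′ on the gene's own strand, from RefSeq on GRCm38.p6. Capitals mark a TATA box (TATAAA) or an AP-1 site (TGANTCA), the motif bound by Fos and Jun factors.
Il1a, chr2:129309973-129310222, minus strand: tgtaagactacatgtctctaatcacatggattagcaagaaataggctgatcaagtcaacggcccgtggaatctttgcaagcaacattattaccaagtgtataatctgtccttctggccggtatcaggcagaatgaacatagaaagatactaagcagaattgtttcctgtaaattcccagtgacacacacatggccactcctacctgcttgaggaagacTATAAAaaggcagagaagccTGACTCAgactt
Il1b, chr2:129371140-129371389, minus strand: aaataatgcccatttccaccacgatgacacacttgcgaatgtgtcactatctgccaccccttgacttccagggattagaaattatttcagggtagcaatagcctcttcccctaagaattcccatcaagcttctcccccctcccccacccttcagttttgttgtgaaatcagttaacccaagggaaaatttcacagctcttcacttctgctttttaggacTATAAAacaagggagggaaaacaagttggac
Il36b, chr2:24152922-24153171, plus strand: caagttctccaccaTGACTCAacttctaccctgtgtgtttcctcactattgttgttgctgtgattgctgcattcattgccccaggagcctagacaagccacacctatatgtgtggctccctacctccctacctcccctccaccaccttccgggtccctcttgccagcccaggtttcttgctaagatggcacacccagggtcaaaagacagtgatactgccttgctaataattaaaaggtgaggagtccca
Il36g, chr2:24186226-24186475, plus strand: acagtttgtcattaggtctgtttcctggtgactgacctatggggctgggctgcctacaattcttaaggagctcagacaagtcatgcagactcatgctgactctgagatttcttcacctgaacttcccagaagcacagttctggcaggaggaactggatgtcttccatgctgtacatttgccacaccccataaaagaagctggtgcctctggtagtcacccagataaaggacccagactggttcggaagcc

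A search on both strands covered 13 such windows of 9 members; a window may hold more than one motif. The TATA box letters begin 32 bases before the start in Il1a and 31 bases before it in Il1b. They were found in 4 of the 9 members and in 12.37% of 32851 promoters. For this and the other motifs a member counts if any of its windows holds the letters, whereas the share is over single promoters. In Il33 they begin 203 bases before the start in the first window and 29 in the second. In Il18 the match is on the opposite strand, 175 to 170 bases before the start. Il1a has an AP-1 match 12 to 6 bases before the start and Il36b one 236 to 230 bases before it. Il1rn has another, 141 to 135 bases before the start of its first window, and 6.749% of all promoters hold these letters. The kappa-B consensus was matched in 1 member, in the second window of Il1r1, and in 7.251% of promoters. The grainyhead motif AACCGGTT was found in 0 of the 9 members and in 0.1157% of promoters. These are letter matches and not measured sites.

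Il1a, the alarm ligand kept inside keratinocytes, had 46.4, 89.7, 47.9, 66.6 and 51.2 CPM in Grhl3 KO libraries 1026, 1027, 1035, 1036 and 1043, against 38.8, 74.4, 76.7, 96.9 and 56.8 CPM in wild-type libraries 1028, 1048, 1528, 1555 and 1561. The lowest and the highest library were both wild type, so the wild-type range encloses the Grhl3 KO range. On the log2 scale the fold change was -0.19 (SE 0.25, adjusted p = 0.939 by edgeR).

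Il1b had the largest within-group SD of log2 CPM of the members, 0.86. In the same order of libraries it had 16.2, 50.3, 31.6, 84.9 and 17.9 CPM in Grhl3 KO, against 20.1, 38.6, 60.9, 63.4 and 50.2 CPM in wild type. The Grhl3 KO group held both the highest library, 1036, and the 2 lowest, 1026 and 1043, and the groups overlap. The log2 fold change was -0.21 (SE 0.46, adjusted p = 0.966 by edgeR). Within libraries 1026 to 1048 it was 0.46, so the sign depends on the later wild-type numbers.

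Il1rn, the antagonist that occupies IL1R1 without signalling, was the most counted member. It had 254, 721, 441, 501 and 471 CPM in Grhl3 KO, against 354, 382, 814, 603 and 352 CPM in wild type. Libraries 1027 of Grhl3 KO and 1528 of wild type were high, and the ranges overlap over most of their length. Its log2 fold change was -0.07 (SE 0.30, adjusted p = 0.984 by edgeR), and 0.38 within libraries 1026 to 1048. The gene, known for a secreted and an intracellular form of the protein, has 6 annotated transcripts, which gene counts do not separate.

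Il1r1, the signalling receptor, was the least counted member, with 122 to 482 reads per library. It had 7.67, 10.7, 13.9, 13.0 and 11.8 CPM in Grhl3 KO, against 9.53, 10.5, 9.81, 12.1 and 6.97 CPM in wild type. Both groups span nearly the same range, and the log2 fold change of 0.22 (SE 0.19, adjusted p = 0.874 by edgeR) has the narrowest 95% limits of the members, from 0.874-fold to 1.56-fold.

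Il1r2, the decoy receptor, had 52.8, 58.8, 22.05, 23.4 and 71.3 CPM in Grhl3 KO, against 98.0, 92.2, 25.4, 40.3 and 48.1 CPM in wild type. Wild-type 1028 and 1048 were the 2 highest libraries, Grhl3 KO 1035 and 1036 the 2 lowest, and the groups overlap. The log2 fold change was -0.41 (SE 0.43, adjusted p = 0.907 by edgeR). Within libraries 1026 to 1048 both wild-type libraries lay above all 5 Grhl3 KO libraries, and the log2 fold change there was -1.06 with an adjusted p of 0.749 by edgeR. Without wild-type 1528 and 1555 it was -0.80, and without wild-type 1028 it was -0.18.

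Among the IL-36 ligands, Il36a had 143, 231, 145, 190 and 405 CPM in Grhl3 KO, against 264, 88.3, 166, 346 and 104 CPM in wild type. Grhl3 KO 1043 and wild-type 1555 were highest, 1 from each group. The log2 fold change was 0.20 (SE 0.41, adjusted p = 0.960 by edgeR), and it was -0.12 without Grhl3 KO 1043 and 0.51 without wild-type 1555, so single mice set its sign and size.

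Il36b had 36.6, 89.2, 51.3, 48.3 and 78.4 CPM in Grhl3 KO, against 72.6, 35.9, 56.7, 58.3 and 28.8 CPM in wild type. The highest 2 libraries were Grhl3 KO and the lowest 2 wild type, with the rest interleaved. On the log2 scale the fold change was 0.27 (SE 0.29, adjusted p = 0.913 by edgeR).

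Il36g had 143, 279, 159, 274 and 261 CPM in Grhl3 KO, against 222, 202, 189, 426 and 100.1 CPM in wild type. As for Il1a, the lowest and the highest library were both wild type. The log2 fold change was -0.03 (SE 0.34, adjusted p = 0.992 by edgeR), and 0.32 without wild-type 1555.

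Il33, the nuclear alarm cytokine, had 70.6, 90.2, 74.6, 240.4 and 209 CPM in Grhl3 KO, against 189, 186, 82.8, 262 and 118 CPM in wild type. Of the Grhl3 KO libraries 3 were low and 2 high, and the wild-type libraries spread over much the same range. Its log2 fold change was -0.29 (SE 0.41, adjusted p = 0.943 by edgeR). Leaving out wild-type 1555 gave -0.08 and leaving out Grhl3 KO 1036 gave -0.60.

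Il18, which caspase-1 activates as it does IL-1β, had the largest fold change of the members in absolute size. It had 29.0, 24.4, 33.3, 38.6 and 67.8 CPM in Grhl3 KO, against 40.1, 17.0, 41.9, 10.7 and 20.5 CPM in wild type. All 5 Grhl3 KO libraries were above the wild-type median, but wild-type 1028 and 1528 lay above 4 of them. The log2 fold change of 0.57 (SE 0.39, 95% limits -0.30 to 1.43) had an adjusted p of 0.824 by edgeR. It was 0.26 without Grhl3 KO 1043. Bco2 and Tex12 overlap Il18 on the opposite strand, and reads of the 3 are kept apart only as far as the counts, which the deposited table's name calls reverse-stranded, used strand. Il18 is not alone in this. Il1a (Gm14023), Il1b (Il1bos) and Il1r2 (Gm16894) also have a gene on the opposite strand. Il1r1 (Gm38070) and Il1r2 (Gm37347) overlap a gene on the same strand, where strand cannot part reads.

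**Figure D2:**
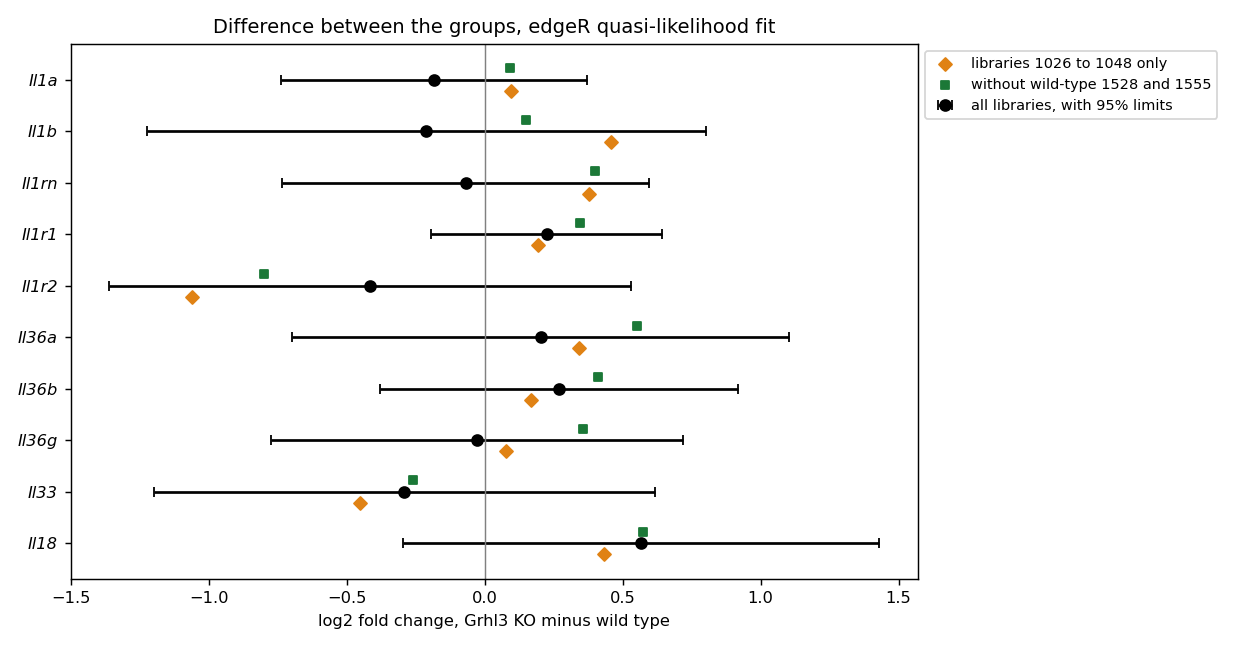
Fitted log2 fold change of each member, Grhl3 KO minus wild type, over all libraries (black, with 95% limits), within libraries 1026 to 1048 (orange diamonds) and without wild-type 1528 and 1555 (green squares). Every black interval includes 0; Il1a, Il1b, Il1rn and Il36g lie left of 0 over all libraries and right of it in both smaller sets.

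Since read counts grow with transcript length, levels were compared between genes as CPM per kb of exon. In this order Il36a came first with a mean over the 10 libraries of 236 CPM per kb, followed by Il36g with 137, Il1rn with 88.4, Il33 with 52.8 and Il36b with 45.7 CPM per kb. Il1a followed with 32.7, Il18 with 31.3, Il1r2 with 27.9, Il1b with 22.8 and Il1r1 with 1.66 CPM per kb. Neighbours differed by more than the SD of their log2 ratio over libraries at 3 steps only. Il36a was above Il36g in 9 of 10 libraries, Il36g was above Il1rn in 8, and Il1b was above Il1r1 in 10. The 6 steps from Il1rn down to Il1b were within that spread. The place of Il1rn depends on the length used. Its exon union has 5535 bases over 6 transcripts, whereas its longest single transcript has 2554 bases. Dividing by that transcript would put the mean of Il1rn above that of Il36g. In both groups the summed IL-36 ligands stood above the summed IL-1 ligands, 3 genes against 2. The sum of Il36a, Il36b and Il36g per kb was 9.57 ± 5.56 times that of Il1a and Il1b in Grhl3 KO and 7.55 ± 5.25 times in wild type (SD, n = 5 each). Most of the IL-36 sum was Il36a and Il36g. Il36b was above Il1a in 7 of 10 libraries, a step within the spread.

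**Figure D3:**
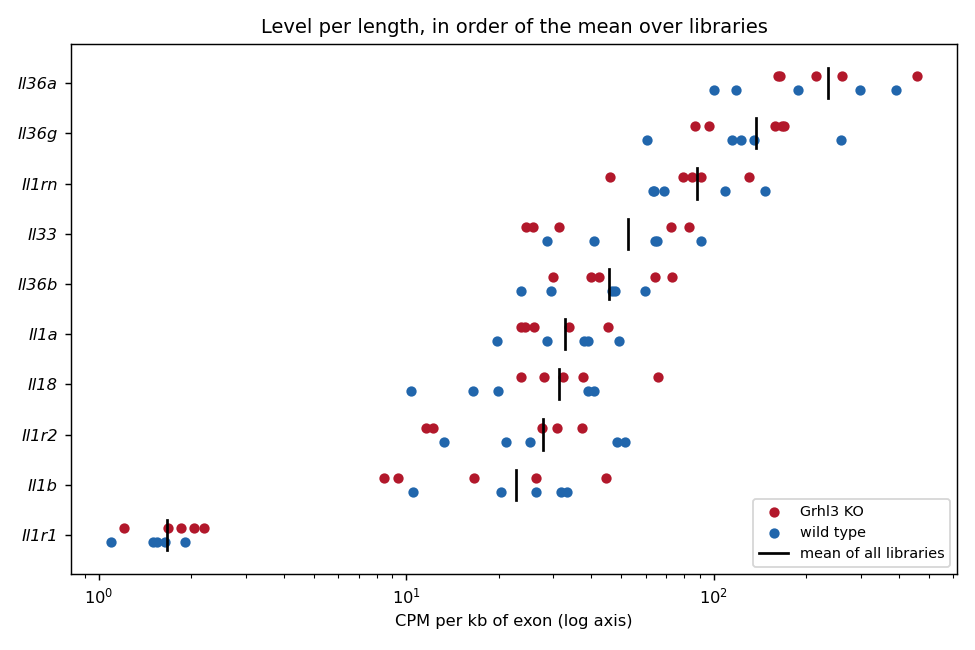
Level per length of each member in each library, in CPM per kb of exon on a log axis, Grhl3 KO in red above wild type in blue, with a black line at the mean of all 10 libraries. Il36a lies at the top with a mean of 236 CPM per kb and Il1r1 stands alone at the bottom with 1.66 CPM per kb.

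Ratios of antagonist to ligand and of decoy to receptor differed between the groups by less than the spread of the mice. Il1rn per kb was 1.75 ± 0.483 times the sum of Il1a and Il1b in Grhl3 KO and 1.57 ± 0.484 times in wild type (SD, n = 5 each). These values rest on the exon union of Il1rn, and its longest single transcript as the length would raise both. For the IL-36 branch the antagonist is Il36rn, carried in the table as Il1f5. It had 45.4 ± 22.9 CPM in the Grhl3 KO libraries and 43.7 ± 34.6 CPM in the wild-type libraries (SD, n = 5 each), with a log2 fold change of 0.05 (adjusted p = 0.992 by edgeR). Set per kb against the 3 IL-36 ligands it made up a ratio of 0.0228 ± 0.00541 in Grhl3 KO and 0.0280 ± 0.0229 in wild type, far below the ratio of Il1rn to the IL-1 ligands in both groups. The decoy Il1r2 was 14.6 ± 8.31 times Il1r1 per kb in Grhl3 KO and 21.3 ± 11.2 times in wild type. The 3 differences are smaller than 1 SD of either group, and no test was run on these ratios.

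The members varied more between mice of one group than most genes did. The median within-group SD of log2 CPM was 0.67 over the 10 members and 0.26 over all genes tested. Il1b had an SD of 0.86, and 93.3% of genes had a lower one. Il1r2 followed with 0.81, Il33 with 0.76, Il36a with 0.74 and Il18 with 0.71. At the low end, Il1r1 had 0.31 and Il1a 0.46.

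Over the 10 libraries r was 0.64 to 0.76 among Il1a, Il1b and Il1rn and 0.67 to 0.82 among Il36a, Il36b and Il36g, but the 2 sets were not separate. All 45 pairs were tested by permutation with 100000 resamples (two-sided), and 0 pairs had an adjusted p under 0.05 by Pearson's r or by Spearman's rho. Without adjustment 7 pairs passed by Pearson's r and 8 by Spearman's rho. Libraries share their tissue make-up and scaling, and 34 of the 45 correlations were positive.

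Il36a and Il36b had the highest correlation, with r = 0.82 (permutation p = 0.00465, adjusted p = 0.209) and rho = 0.87 (permutation p = 0.00203, adjusted p = 0.0913). It was 0.76 without the 2 libraries farthest from the median of Il36a and 0.85 within the 7 libraries 1026 to 1048. Il36a and Il36g had r = 0.74 (permutation p = 0.0140, adjusted p = 0.210) and rho = 0.75 (permutation p = 0.0176, adjusted p = 0.198), with 0.93 without the 2 farthest and 0.57 within the 7 libraries. Il36b and Il36g had r = 0.67 (permutation p = 0.0330, adjusted p = 0.278) and rho = 0.68 (permutation p = 0.0361, adjusted p = 0.232), with 0.44 without the 2 farthest and 0.66 within the 7. Wild-type 1561 was lowest for Il36b and Il36g and the second lowest for Il36a. The 3 libraries 1528 to 1561 are too few for a value of their own.

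Il1a and Il1b had r = 0.76 (permutation p = 0.0144, adjusted p = 0.210) and rho = 0.78 (permutation p = 0.0104, adjusted p = 0.198), with 0.69 without the 2 farthest libraries and 0.73 within the 7. Il1a and Il1rn had r = 0.72 (permutation p = 0.0187, adjusted p = 0.210) and rho = 0.76 (permutation p = 0.0147, adjusted p = 0.198), with 0.72 without the 2 farthest and 0.68 within the 7. Between the IL-1 and the IL-36 genes r ran from -0.14 for Il1b with Il36a to 0.58 for Il1rn with Il36b. Il1rn had 0.55 with Il36g and 0.37 with Il36a, and Il1a had 0.53 with Il36g, values not far below those among the IL-1 genes, whereas Il1a with Il36a had 0.06 and Il1b with Il36b -0.10. Il1rn with Il36g had 0.71 without the 2 farthest libraries and 0.77 within the 7. Outside both sets, Il36g and Il33 had r = 0.62 (permutation p = 0.0518, adjusted p = 0.291) and rho = 0.71 (permutation p = 0.0270, adjusted p = 0.232). Their r was 0.66 without the 2 farthest and 0.65 within the 7. The correlation of Il1r1 with Il36g, r = 0.66 (permutation p = 0.0370, adjusted p = 0.278) with rho = 0.56 (permutation p = 0.0958, adjusted p = 0.387), was 0.10 without the 2 farthest libraries and so rests on those.

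**Figure D4:**
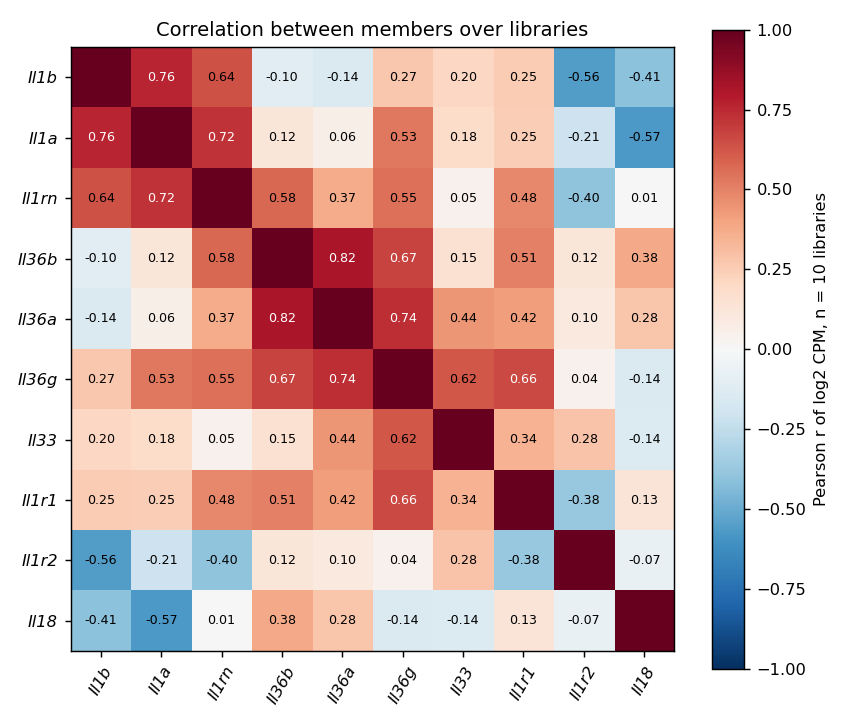
Pearson correlation of log2 CPM over the 10 libraries for each pair of members, red for positive and blue for negative values. Values are 0.64 to 0.76 among Il1a, Il1b and Il1rn, 0.67 to 0.82 among Il36a, Il36b and Il36g, and -0.14 to 0.58 between these 2 sets; 0 of the 45 pairs passed after adjustment.

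For each member up to 3 genes with the highest Pearson r over the 10 libraries were listed from all genes tested, as a description without a test. The highest of 13731 values of r over 10 libraries is large through the choice alone. For Il1b these were Clec4e (r = 0.96), Fpr1 (r = 0.95) and Osm (r = 0.93). Clec4e and Fpr1 encode receptors of neutrophils and macrophages for microbial products, and Osm encodes the cytokine oncostatin M. Il36a was nearest to Alox12b (r = 0.95), a lipoxygenase of the cornified barrier, Blmh (r = 0.95), a protease that breaks down filaggrin, and Rnf126 (r = 0.95). Il36b was nearest to Scnn1g (r = 0.93), Krt16 (r = 0.92), a keratin of activated keratinocytes, and Zbtb32 (r = 0.92). Il36g was nearest to Cpeb4 (r = 0.92), Nbeal2 (r = 0.90) and Tfap2a (r = 0.90). Within libraries 1026 to 1048 these had r = 0.76, 0.76 and 0.72, whereas the genes named for Il36a and Il36b had 0.90 to 0.99. Fpr1 (0.0629 to 2.09 CPM), Zbtb32 (0.282 to 1.41 CPM), Osm (1.07 to 6.14 CPM) and Clec4e (1.57 to 8.35 CPM) were low.

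Il1a was nearest to Tgfb2 (r = 0.90), Tlr2 (r = 0.89) and Pgf (r = 0.89), which encode a growth factor, a receptor for bacterial lipoproteins and a placental growth factor. Il1rn was nearest to Brms1 (r = 0.91) and Eif4ebp1 (r = 0.88). The receptor Il1r1 was nearest to Zfand5 (r = 0.93), Myo15b (r = 0.92) and Epn2 (r = 0.90). The decoy Il1r2 was nearest to Cpt1a (r = 0.93), the carnitine transferase of fatty acid oxidation, C2cd5 (r = 0.90) and Edar (r = 0.90). Il33 was nearest to Tpd52 (r = 0.98), Renbp (r = 0.92) and Ces2f (r = 0.88), and Il18 to Ranbp9 (r = 0.92), Dchs1 (r = 0.91) and Comtd1 (r = 0.91). Within libraries 1026 to 1048 r for these pairs ran from 0.79 for Il18 with Dchs1 to 0.98 for Il1rn with Brms1. Edar (0.748 to 3.42 CPM), Dchs1 (1.13 to 3.53 CPM), Myo15b (1.64 to 4.06 CPM) and Renbp (1.58 to 5.31 CPM) were low.

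Cell types could not be separated in these bulk libraries, in which fewer cells of a type and less RNA per cell cannot be told apart. The 10 members were therefore set beside the summed CPM of 13 marker lists (12 of cell types and 1 of Y-linked genes), 130 relations in all. Without adjustment 11 had a permutation p under 0.05 by Pearson's r. After adjustment 0 had one by Pearson's r and 1 by Spearman's rho. That one was Il36a with the 11 measured suprabasal keratinocyte markers, with rho = 0.93 (permutation p = 0.00029, adjusted p = 0.0377) and r = 0.77 (permutation p = 0.00816, adjusted p = 0.427). It was r = 0.93 without the 2 farthest libraries, and r = 0.74 and rho = 0.93 within the 7 libraries 1026 to 1048. Il36b had r = 0.82 with the same list (permutation p = 0.00315, adjusted p = 0.409) and rho = 0.88 (permutation p = 0.00174, adjusted p = 0.113). The summed suprabasal markers ran from 42711 to 63368 CPM in Grhl3 KO and from 29473 to 104603 CPM in wild type, with wild-type 1561 lowest and wild-type 1028 highest. A single marker of the list, Krt1, named for being called and outside the rule for named genes, was called higher, with 200.3 ± 97.7 CPM in the Grhl3 KO libraries and 24.2 ± 11.2 CPM in the wild-type libraries (SD, n = 5 each; log2 fold change 3.05, adjusted p = 0.0358 by edgeR). The call was lost in 15 of the 22 alternatives, where the fold change stayed between 2.84 and 3.28 on the log2 scale. Within libraries 1026 to 1048 the adjusted p was 0.416 by edgeR, without wild-type 1528 and 1555 it was 0.193, and leaving out any 1 library other than Grhl3 KO 1026 gave 0.0578 to 0.127.

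The 12 neutrophil markers summed to between 7628 and 11372 CPM in Grhl3 KO and between 3128 and 23314 CPM in wild type, nearly all of it S100a9 (mean 6077 CPM) and S100a8 (mean 4409 CPM), which keratinocytes also express. The markers Mmp8, Mpo, Ly6g, Ngp, Camp and Fpr1 each averaged below 1 CPM, and 0 of the 12 were called. Without S100a8, S100a9 and Lcn2, a list trimmed after the values were seen, the other 9 ran from 11.6 to 59.99 CPM in Grhl3 KO and from 14.9 to 35.2 CPM in wild type. The most abundant of these were Csf3r (mean 11.3 CPM) and Cxcr2 (mean 10.7 CPM). Grhl3 KO 1036 was the highest library of this sum, as it was of Il1b, and Grhl3 KO 1026 the lowest of both. Since the list was trimmed after the values were seen and holds Fpr1, a gene nearest to Il1b, this match is no test. With the sum of all 12 markers Il1b had r = -0.17 (permutation p = 0.624, adjusted p = 0.874) and rho = 0.08 (permutation p = 0.839, adjusted p = 1). The part of neutrophils in the level of Il1b was not tested. Markers of monocytes and macrophages summed to between 180.1 and 269.7 CPM in Grhl3 KO and between 188 and 244 CPM in wild type. Muscle was present in varying amount, with skeletal muscle markers from 639 to 4697 CPM in Grhl3 KO and from 1054 to 2411 CPM in wild type. Fibroblast markers ran from 220.4 to 678 CPM in Grhl3 KO and from 288 to 495 CPM in wild type, and B and plasma cell markers from 0.0788 to 0.347 CPM in Grhl3 KO and from 0.0527 to 2.50 CPM in wild type. Il1b had r = -0.69 with the skeletal muscle, -0.70 with the smooth muscle and -0.69 with the fibroblast markers. Permutation p was 0.0291, 0.0273 and 0.0290, and adjusted p 0.427 for each. What lies behind these values was not tested. No gene was called in the 12 lists other than the suprabasal one.

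**Figure D5:**
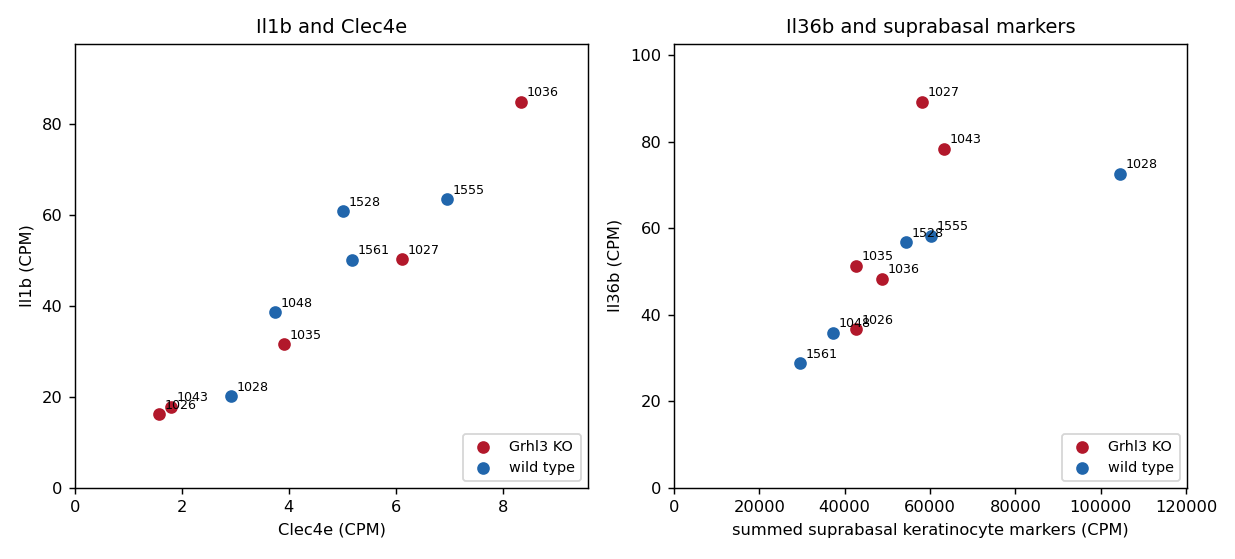
Left, Il1b against Clec4e, both in CPM, in each of the 10 libraries; right, Il36b in CPM against the summed suprabasal keratinocyte markers in CPM; Grhl3 KO in red and wild type in blue, each point with its library number. Clec4e was plotted because it had the highest r with Il1b of all genes tested, so their going together follows from that choice. Grhl3 KO 1036 is highest for both, at 84.9 and 8.35 CPM. On the right, wild-type 1561 is lowest on both axes.

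Of the other genes of the pathway, 0 were called in any of 5 lists, which were other ligands and antagonists, other receptors, processing enzymes, signal transduction and response genes. The other ligands and antagonists leave 1 gene tested, Il1f5, described with the ratios. The median log2 fold change was -0.0044 over the receptors tested, 0.05 over the processing enzymes, 0.07 over signal transduction and -0.12 over the response genes, beside -0.0011 over all genes. Among the receptors, co-receptors and decoys 7 of 9 were tested and, beside 7.16% of the whole table, 1 had an unadjusted p under 0.05. This was Il18r1, the ligand-binding chain for IL-18, with 1.84 ± 0.746 CPM in the Grhl3 KO libraries and 3.77 ± 1.73 CPM in the wild-type libraries (SD, n = 5 each), and its log2 fold change was -1.03 (SE 0.38, adjusted p = 0.578 by edgeR). Its partner Il18rap had a log2 fold change of -0.50, with 3.10 ± 1.59 CPM in the Grhl3 KO libraries and 4.42 ± 0.938 CPM in the wild-type libraries. The IL-36 receptor Il1rl2 had 28.2 ± 7.97 CPM in the Grhl3 KO libraries and 24.5 ± 4.61 CPM in the wild-type libraries, and per kb was 2.36 ± 0.646 times Il1r1 in Grhl3 KO and 2.38 ± 0.487 times in wild type. Il1rap, the chain shared by the receptors for IL-1, IL-33 and IL-36, had 42.1 ± 7.94 CPM in the Grhl3 KO libraries and 42.3 ± 9.03 CPM in the wild-type libraries. The IL-33 receptor Il1rl1 was low, with 1.56 ± 0.996 CPM in the Grhl3 KO libraries and 2.29 ± 1.85 CPM in the wild-type libraries.

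In the list of processing enzymes 18 of 28 genes were tested and 3 had an unadjusted p under 0.05, the share over the whole table being 7.16%. Nlrp10, an NLR family member expressed in epidermis, had 14.8, 20.6, 11.5, 18.9 and 20.5 CPM in Grhl3 KO, against 14.4, 27.9, 66.3, 48.0 and 32.6 CPM in wild type, with wild-type 1028 inside the Grhl3 KO range. Its log2 fold change was -1.13 (SE 0.35, adjusted p = 0.455 by edgeR), but -0.29 within libraries 1026 to 1048 and -0.53 without wild-type 1528 and 1555. Gsdma, a pore-forming gasdermin of skin, had a log2 fold change of -1.01 (adjusted p = 0.645 by edgeR), and 8.07% of its transcript is near-identical to Gsdma2. P2rx7, the ATP-gated channel that triggers the NLRP3 inflammasome, had -0.62 (adjusted p = 0.689 by edgeR). Pycard, the inflammasome adaptor, had -0.44 (adjusted p = 0.711 by edgeR). Casp1 had 83.9 ± 7.28 CPM in the Grhl3 KO libraries and 89.6 ± 18.8 CPM in the wild-type libraries (SD, n = 5 each).

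All 22 signal transduction genes were tested and, beside 7.16% of the whole table, 1 had an unadjusted p under 0.05, Rela, the p65 subunit of NF-κB. It had 89.4, 96.0, 87.4, 87.2 and 89.0 CPM in Grhl3 KO, against 70.8, 67.7, 76.7, 68.0 and 82.9 CPM in wild type. The groups do not overlap, as in 1.35% of all genes, and the log2 fold change was 0.29 (SE 0.08, adjusted p = 0.378 by edgeR). Next by p were Chuk, an IκB kinase, at 0.32, Irak2 at -0.30 and Irak1 at 0.20 on the log2 scale, with adjusted p from 0.728 to 0.753 by edgeR. Within libraries 1026 to 1048 Chuk had 0.059 and Irak1 0.051. The count of Irak2 is uncertain, since 37% of its transcript is near-identical to stretches of 38 other genes.

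Among the response genes 29 of 30 were tested, 12 with a fitted fold change above 0 and 17 below, and 5 had an unadjusted p under 0.05, the share over the whole table being 7.16%. Lcn2, an iron-sequestering protein of inflamed epithelia that is also on the neutrophil list, had 10.3, 15.8, 53.6, 169 and 23.9 CPM in Grhl3 KO, against 10.99, 6.27, 2.43, 26.4 and 5.93 CPM in wild type. Its log2 fold change was 2.40 (SE 0.83, adjusted p = 0.541 by edgeR), and 1.32 without Grhl3 KO 1036, the highest library. Tslp, an epithelial cytokine that acts on dendritic cells, had 8.87, 8.96, 48.6, 36.5 and 62.0 CPM in Grhl3 KO, against 4.76, 3.69, 1.16, 1.46 and 20.7 CPM in wild type. The fitted log2 fold change was 2.37 (SE 0.83, adjusted p = 0.548 by edgeR), with wild-type 1561 above 2 of the Grhl3 KO libraries, and it was 3.57 without wild-type 1561. Without wild-type 1528 and 1555, the lowest libraries of Tslp, it was 1.76, and within libraries 1026 to 1048 it was 2.96. Saa3 had a log2 fold change of 1.62 (adjusted p = 0.600 by edgeR; 10.1% of its transcript is near-identical to other genes), and 0.61 without Grhl3 KO 1035, which had 34.5 CPM. Il17c had one of 1.88 (adjusted p = 0.621 by edgeR). The fifth, Defb4, an antimicrobial defensin named after its value was seen, had -1.28 (adjusted p = 0.651 by edgeR).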

How the data were processed

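The data are 10 RNA-seq libraries, 1 per mouse. Per the labels' protocols, RNA was purified on small-sample columns and libraries were made with a stranded poly(A) kit. The deposited values are whole-number counts per gene, made by the authors with featureCounts on GRCm38, per the submitters' processing notes. The sources used here name no aligner, no annotation release and no handling of multi-mapping reads. The table holds 22740 protein-coding genes in 10 columns, with 0 rows that name no gene and 0 other columns of per-sample values.

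Genes were filtered with filterByExpr of edgeR 4.0.16 (minimum count 10, minimum total 15), scaled by TMM factors and tested with edgeR's robust quasi-likelihood test in R 4.3.3. Benjamini-Hochberg adjustment covered the 13731 genes tested, and the threshold was 0.05. SE follows from the F statistic and the 95% limits from the moderated degrees of freedom. CPM is per M of TMM-scaled library size, and log2 CPM carries a prior count of 2. Correlations used log2 CPM.

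Lengths (the union of exons) and positions come from GENCODE M21 on GRCm38, which holds 21842 of the identifiers. Near-identical means a stretch of at least 75 bases at 95% identity or more. The depth of 15.3 to 32.9 M counts limits low genes most. That the mice are separate animals comes from their numbers and the design text.

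The members, the pathway lists and the marker lists were chosen with earlier results of these data known. Named genes are all members, the genes of each pathway list with an adjusted p under 0.05 or else the 4 of smallest p, the 3 genes nearest to each member (1 of which is not reported here), and the 2 most abundant genes of a marker list. Outside this rule, Il1rap and Casp1 are given by level only, 6 low neutrophil markers by name, and Krt1 and Defb4 because they are counted in a list. Other scalings and filters, DESeq2 1.42.0, limma 3.58.1 with voom, leaving out each library, a term for the number series and a Y-linked covariate were tried as alternatives.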

Additional observations from a re-analysis of the deposited data

Results flagged for a closer look

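The per-kb ratio of Il36a, Il36b and Il36g to Il1a and Il1b was 19.3 in Grhl3 KO 1043, whereas the other 4 Grhl3 KO libraries had 5.38 to 8.73. Its gap to the nearest library, as a share of the range of the group, was 0.759, above the 95% critical value of Dixon's test. Among 34 groups of values examined this was 1, and chance flags about 1 in 20 groups. The same library had the highest Il36a (405 CPM) and Il18 (67.8 CPM) of all 10 and the second lowest Il1b (17.9 CPM). Wild-type 1028 had the next highest ratio, 16.3, so a high value was not confined to the Grhl3 KO group. Without Grhl3 KO 1043 the log2 fold change of Il36a was -0.12, against 0.20 with it.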

How the results depend on the processing

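No member was called under any of the 22 alternatives, with adjusted p of 0.611 or more. Il1r1, Il1r2, Il36b, Il33 and Il18 kept the sign of their fold change in all of them. The number of all genes called moved more. It was 11, but 119 with DESeq2 (57 higher and 62 lower), 7 without a filter and 1 with limma voom. It was also 1 with the number series as a batch term, within libraries 1026 to 1048, with the Y-linked covariate, and without wild-type 1528 and 1555. Leaving out 1 library at a time gave 1 to 16 genes called and 0 to 1 member pairs past the threshold; the 1 pair passed without Grhl3 KO 1035.

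In the order batch term, libraries 1026 to 1048, Y-linked covariate, and without wild-type 1528 and 1555, log2 fold changes of opposite sign to the reported ones were as follows. Il1a had 0.094, 0.10, 0.13 and 0.093, and Il1b 0.46, 0.46, 0.25 and 0.15. Il1rn had 0.38, 0.38, 0.46 and 0.40, and Il36g 0.076, 0.078, 0.36 and 0.36, with 0.061 by limma voom. Il1rl2 had -0.025 and -0.024 in the first 2. Leaving out 1 library gave -0.27 to 0.18 for Il1rn, -0.12 to 0.51 for Il36a, -0.22 to 0.32 for Il36g, -0.28 to 0.63 for Il1f5 and -0.90 to 0.066 for Il1rl1. The cause was not tested. Within 1026 to 1048 and with the batch term or the Y-linked covariate, 1 member had an unadjusted p under 0.05, by edgeR. In the same order 931, 767 and 700 of all genes had one. Over all libraries 0 members had one, beside 983 of 13731 genes, or 7.16%. Other scalings moved the median of all genes by under 0.1 on the log2 scale. No paired analysis was possible because the groups share no sample numbers.

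The depth of 15.3 to 32.9 M counts limits Il1r1 most, the member with the fewest reads. The number series and the group cannot be told apart for wild-type 1528, 1555 and 1561.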
